A study of Mus musculus with 6 samples.

Results

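The data describe 10 genes of epithelial identity in cells sorted as endothelium: Epcam, Cdh1, Cldn6, Cldn7, Krt7, Krt8, Krt18, Krt19, Esrp1 and Spint1. They are a list of gene names, standard markers of epithelial adhesion, tight junctions, keratins, splicing and surface proteolysis, drawn up with earlier results of these data known. All 10 were measured, among 18193 genes in all. They were covered by 13 probe sets annotated to a single symbol, and each gene is given by its probe set with the highest mean over the 6 arrays. Cells came from mouse embryos at embryonic day 9.5, of a mixed genetic background and without any treatment. They were taken fresh from the heart tube, from caudal-half tissue and from the yolk sac, called here the heart fraction, the caudal fraction and the yolk sac. From each tissue the cells that carried CD31 and lacked CD41 and CD45 were collected by flow cytometry. CD31 is an adhesion molecule of endothelium that some other embryonic cells also carry, CD41 a marker of platelet precursors and early blood progenitors, and CD45 one of leukocytes. There were 2 biological replicates per tissue, each on its own Affymetrix array, and the labels do not give the number of embryos behind a replicate.

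Epithelial cells form sheets that are sealed by tight junctions, held together by E-cadherin and braced inside by keratin filaments. Endothelial cells use a related but separate set of molecules, with VE-cadherin, claudin 5 and vimentin in the corresponding places. In the embryo of this stage epithelia lie next to the vessels of the yolk sac and the trunk. Visceral endoderm and mesothelium line the yolk sac, and gut, surface ectoderm and coelomic lining lie in the trunk. Primordial germ cells, which move through the hindgut at this stage, also carry EpCAM, E-cadherin and CD31. The comparison asks how far RNA of epithelial genes is present in the CD31-sorted fractions and whether it differs between the tissues.

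Short stretches of the genome just upstream of these genes are shown for 4 members, which stand for the adhesion, tight junction and keratin members. Each stretch holds the 250 bases before the RefSeq gene start (build GRCm38.p6), 5′ to 3′ on the strand of the gene. Epcam lies at chr17:87635729-87635978 (plus strand), Cldn6 at chr17:23679115-23679364 (plus), Krt8 at chr15:102004343-102004592 (minus) and Krt18 at chr15:102027966-102028215 (plus). Capitals mark CACCTG, the E-box form bound by Snail and Zeb repressors, and GGGCGG, the GC box, on either strand.
Epcam: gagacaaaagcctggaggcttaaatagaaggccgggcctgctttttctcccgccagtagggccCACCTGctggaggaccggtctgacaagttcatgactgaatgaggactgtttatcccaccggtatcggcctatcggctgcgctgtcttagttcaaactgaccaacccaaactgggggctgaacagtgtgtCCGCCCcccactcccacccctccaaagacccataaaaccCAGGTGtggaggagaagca
Cldn6: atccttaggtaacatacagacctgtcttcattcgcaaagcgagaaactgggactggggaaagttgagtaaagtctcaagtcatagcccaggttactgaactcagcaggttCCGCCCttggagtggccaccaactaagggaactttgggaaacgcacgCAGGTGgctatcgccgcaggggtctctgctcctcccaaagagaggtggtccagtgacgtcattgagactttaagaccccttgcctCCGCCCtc
Krt8: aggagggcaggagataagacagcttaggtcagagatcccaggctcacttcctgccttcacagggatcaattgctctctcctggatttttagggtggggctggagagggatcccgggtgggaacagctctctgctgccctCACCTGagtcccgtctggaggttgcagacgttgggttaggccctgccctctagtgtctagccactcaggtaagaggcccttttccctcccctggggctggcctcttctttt
Krt18: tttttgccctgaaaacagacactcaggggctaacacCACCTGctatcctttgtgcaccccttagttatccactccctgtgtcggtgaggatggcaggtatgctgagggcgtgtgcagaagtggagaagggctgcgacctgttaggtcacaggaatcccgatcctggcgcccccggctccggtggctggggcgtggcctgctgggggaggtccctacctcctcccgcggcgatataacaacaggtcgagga
The keratin pair lies head to head on chromosome 15, with 23373 bases between the 2 windows. Of the 10 members, 7 had a window in the table, with 8 windows between them because Cldn7 has 2. CACCTG occurred in 6 of these 8 windows (Epcam, Cldn6, the second of Cldn7, Krt7, Krt8 and Krt18) and in 17.2% of all 32851 windows of this length. All 4 printed windows hold CACCTG, and the windows without it, that of Spint1 and the first of Cldn7, are not printed. In Epcam the first bases of CACCTG lay 187 and 19 bases before the start, and in Krt8 111 bases before it. The looser E-box CANNTG, which includes CACCTG, was in the same 6 windows and in 66.2% of all windows. GGGCGG occurred in 5 of the 8 windows and in 32.7% of all windows, and neither TATAAA (12.4% of all windows) nor CCAAT (33.8%) occurred in any. These matches describe letters in the windows and not binding.

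Levels are the authors' RMA values, taken as the natural log of the deposited signals and read as log2 units. If those signals are linear instead, each difference is 1.44 times as large and limma's p-values are the same. Over all probe sets r was 0.981 to 0.986 between replicates and 0.946 to 0.969 between tissues. The 3′ minus 5′ difference of the Gapdh control probe sets, a measure of RNA integrity, was lowest in the caudal fraction (1.58 to 1.67). It was 1.88 to 1.98 in the heart fraction and 1.81 to 2.04 in the yolk sac. Its bearing on the members was not tested. The 10 pan-endothelial genes examined, such as Pecam1 and Cdh5, were far above the 27 bacterial control probe sets (1.33 to 4.03) on every array. Their mean level was 9.59 to 9.73 in the heart fraction, 10.01 to 10.11 in the caudal fraction and 10.27 to 10.32 in the yolk sac. In the heart fraction limma called 3 of these genes lower and 1 higher than in the caudal fraction (adjusted p under 0.05). Against the yolk sac it called 5 lower and 0 higher. Over all genes the shares were 2.65% lower and 2.86% higher, then 6.67% lower and 5.14% higher. The median differences of the 10 genes were -0.7 and -0.81. In RNA of whole fractions, fewer cells of a type and less RNA per cell cannot be told apart.

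All 10 epithelial genes had their lowest mean in the heart fraction, and most were called lower there. Of the 10 members, 6 were lower there than in the caudal fraction and 9 lower than in the yolk sac, and none was higher. Over all genes limma called 2.65% lower and 2.86% higher in the first comparison, and 6.67% lower and 5.14% higher in the second (adjusted p under 0.05). Between caudal fraction and yolk sac, 4 members were lower in the caudal fraction, and none was higher, where 4.86% of all genes were called lower and 4.22% higher. At an unadjusted p under 0.05, 0 members were higher in the heart fraction in either comparison, and 1 (Esrp1) was higher in the caudal fraction than in the yolk sac. The median difference of the members was -1.85 between heart fraction and caudal fraction, -2.47 between heart fraction and yolk sac, and -0.85 between caudal fraction and yolk sac. Over all genes the corresponding medians were -0.08, -0.06 and 0.02. The heart fraction arrays are shared by the first 2 comparisons, so their counts are not independent.

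**Figure D1:**
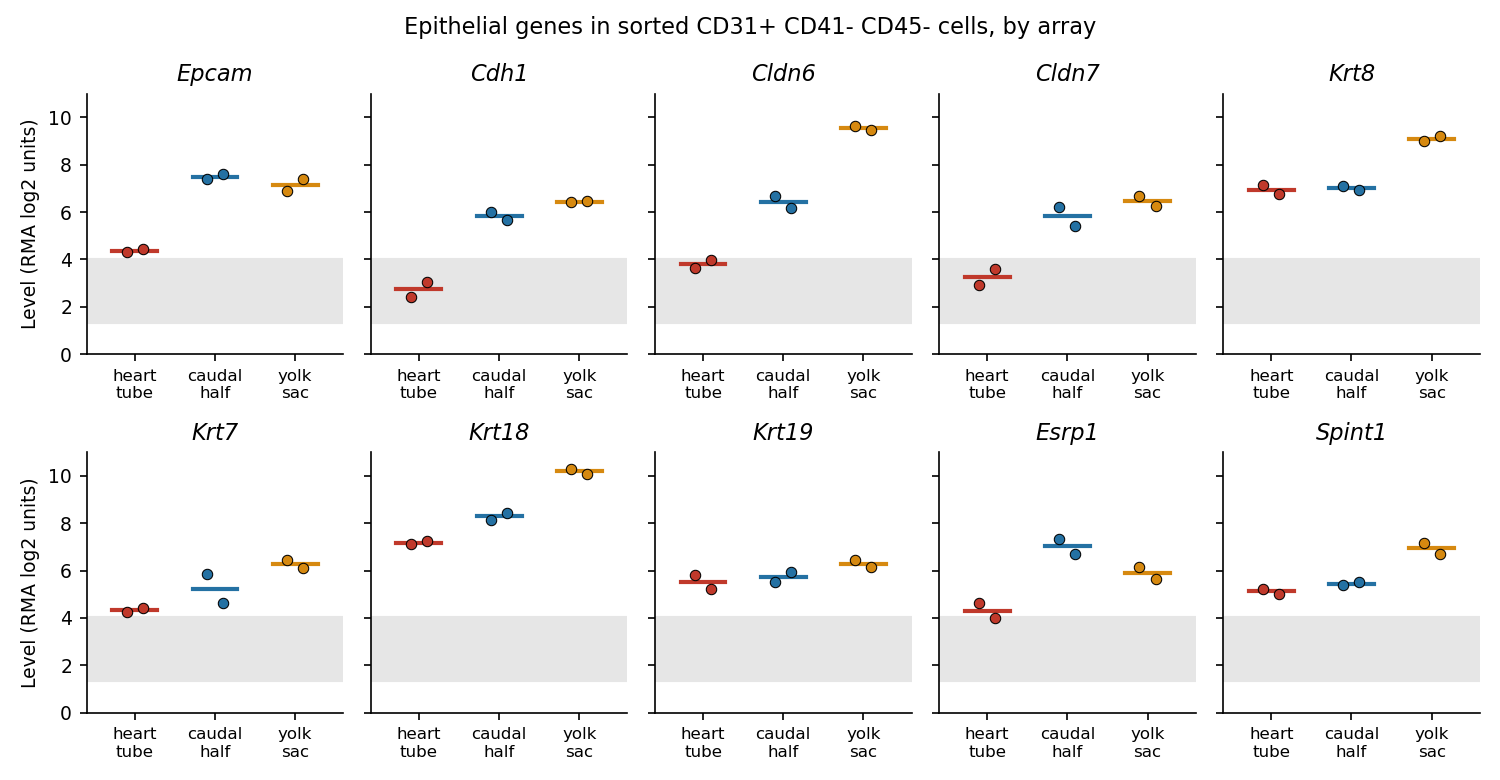
Level of each of the 10 epithelial genes (RMA log2 units) on each array; points are arrays, lines are means of 2 arrays, and the grey band is the range of the bacterial controls (1.33 to 4.03). Both heart fraction points of Cdh1, Cldn6 and Cldn7 and 1 of Esrp1 lie inside the band, and Krt8, Krt18 and Cldn6 reach 8.99 to 10.27 in the yolk sac.

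The adhesion genes Epcam and Cdh1 were present in both the caudal fraction and the yolk sac and low in the heart fraction. Epcam encodes a homophilic adhesion molecule of epithelia. It read 4.30 and 4.45 in the heart fraction, 7.39 and 7.60 in the caudal fraction, and 6.88 and 7.40 in the yolk sac. The heart fraction arrays lay apart from the other 4, while the ranges of the caudal fraction and yolk sac overlapped. The heart fraction was lower by 3.12 ± 0.22 (SE) than the caudal fraction (limma adjusted p = 0.00112) and by 2.77 ± 0.22 than the yolk sac (0.000862). Caudal fraction and yolk sac differed by 0.35, with a 95% interval from -0.18 to 0.89 (adjusted p = 0.406). The other Epcam probe set lay inside the bacterial control range on all 6 arrays (1.5 to 3.81) and was also lower in the heart fraction, by -1.79 and -1.88 (adjusted p = 0.0221 and 0.0106 over all named probe sets).

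Cdh1 encodes E-cadherin, the calcium-dependent adhesion protein of epithelial adherens junctions. It read 2.41 and 3.06 in the heart fraction, 6.00 and 5.67 in the caudal fraction, and 6.41 and 6.47 in the yolk sac. Both heart fraction values were in the range of the bacterial controls, so the size of this difference depends on a signal near background. The fitted differences were -3.10 ± 0.25 against the caudal fraction (adjusted p = 0.0016) and -3.70 ± 0.25 against the yolk sac (0.000462). Measured from the top of the control range in place of the heart fraction mean, they would be 1.81 and 2.41. The caudal arrays were both below the yolk sac arrays, but the difference of -0.60 missed the threshold (95% interval -1.21 to 0.01, adjusted p = 0.215).

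The claudins, membrane proteins of tight junction strands, included the member with the largest difference. Cldn6, a claudin of embryonic epithelia, read 3.65 and 3.98 in the heart fraction, 6.68 and 6.17 in the caudal fraction, and 9.62 and 9.45 in the yolk sac. These 3 ranges were separate, and all 3 comparisons passed. The heart fraction was lower than the yolk sac by 5.72 ± 0.23 (adjusted p = 0.000106) and lower than the caudal fraction by 2.61 ± 0.23 (0.00216). The caudal fraction was lower than the yolk sac by 3.11 ± 0.23 (0.00113). The heart fraction values were again within the control range, and from its top the differences would be 5.51 to the yolk sac and 2.40 to the caudal fraction.

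Cldn7, a claudin found along the sides of many epithelial cells, read 2.91 and 3.59 in the heart fraction, 6.23 and 5.43 in the caudal fraction, and 6.68 and 6.26 in the yolk sac. The heart fraction was lower than the yolk sac by 3.22 ± 0.35 (adjusted p = 0.00264) and lower than the caudal fraction by 2.58 ± 0.35 (0.0109). Both heart fraction values were within the control range, and from its top the differences would be 2.44 and 1.80. The call against the caudal fraction was lost without the first caudal array (adjusted p = 0.0569) and without the first heart fraction array (0.0663). Caudal fraction and yolk sac did not pass (-0.65, 95% interval -1.49 to 0.20, adjusted p = 0.331). Over the 6 arrays, after each gene's own mean was removed, Cdh1 and Cldn7 were the closest pair among the members (root mean square difference 0.306).

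All 4 keratin genes were above the control range on every array, heart fraction included, and had their highest mean in the yolk sac. The type II keratin of Krt8 and the type I keratin of Krt18 pair to form the filaments of simple epithelia, and their promoter windows are printed above. Krt8 read 7.12 and 6.75 in the heart fraction, 7.10 and 6.91 in the caudal fraction, and 8.99 and 9.21 in the yolk sac. The first 2 tissues overlapped, at a difference of -0.07 (95% interval -0.56 to 0.42, adjusted p = 0.898). The yolk sac arrays stood above the other 4. The heart fraction was lower than the yolk sac by 2.17 ± 0.20 (adjusted p = 0.00151), and the caudal fraction was lower by 2.10 ± 0.20 (0.00271). The 2 other probe sets of Krt8 gave -2.18 and -2.29 against the yolk sac in the heart fraction, and -2.32 and -2.16 in the caudal fraction, each past the threshold over all named probe sets. They gave 0.14 and -0.14 between heart fraction and caudal fraction, without passing. The probe set used for Krt8 is of a type that can also bind related sequences, and the genome holds many processed copies of Krt8 and Krt18.

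Krt18 read 7.12 and 7.23 in the heart fraction, 8.15 and 8.44 in the caudal fraction, and 10.27 and 10.09 in the yolk sac. The tissues did not overlap. The heart fraction was lower than the yolk sac by 3.0 ± 0.18 (adjusted p = 0.000298), and the caudal fraction was lower by 1.88 ± 0.18 (0.00281). Heart fraction and caudal fraction differed by -1.12 ± 0.18 (0.0207). That last call was lost whichever of the 4 arrays involved was left out, with adjusted p from 0.0604 to 0.128 and differences from -1.26 to -0.98.

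Krt7 and Krt19 encode keratins of ducts and other simple epithelia, and only Krt7 passed in any comparison. Krt7, a type II keratin, read 4.23 and 4.41 in the heart fraction, 5.85 and 4.61 in the caudal fraction, and 6.45 and 6.12 in the yolk sac. The caudal replicates differed by more than 1 unit, and the second lay close to the heart fraction. Heart fraction against yolk sac passed (-1.96 ± 0.39, adjusted p = 0.0238), but not without any one of the 4 arrays involved (adjusted p from 0.0651 to 0.121). Krt7 became lower in the heart fraction than in the caudal fraction without the second caudal array (-1.53, adjusted p = 0.0459, against -0.91 and 0.271 with it). It became lower in the caudal fraction than in the yolk sac without the first (-1.67, adjusted p = 0.0362, against -1.06 and 0.163). Krt19, a type I keratin, read 5.83 and 5.23 in the heart fraction, 5.51 and 5.92 in the caudal fraction, and 6.43 and 6.16 in the yolk sac. Heart and caudal fractions overlapped, and both lay below the yolk sac arrays. Krt19 passed in no comparison, and its largest difference was -0.77 between heart fraction and yolk sac (95% interval -1.40 to -0.14, adjusted p = 0.122).

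Esrp1 and Epcam were the members whose mean was highest in the caudal fraction, and neither differed from the yolk sac past the threshold. Esrp1 encodes an RNA-binding protein that directs the epithelial pattern of splicing. It read 4.64 and 3.98 in the heart fraction, 7.33 and 6.70 in the caudal fraction, and 6.16 and 5.65 in the yolk sac. The lower heart fraction value, 3.98, was within the control range. The heart fraction was lower than the caudal fraction by 2.71 ± 0.33 (adjusted p = 0.00711) and lower than the yolk sac by 1.59 ± 0.33 (0.0272). The first of these was lost without the first caudal array (adjusted p = 0.0505). The second was lost without the second heart fraction array (0.132), the first yolk sac array (0.119) or the second yolk sac array (0.0503). The caudal arrays were both above the yolk sac arrays, by 1.11 on average (95% interval 0.32 to 1.90, adjusted p = 0.0946).

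Spint1 encodes HAI-1, an inhibitor of membrane serine proteases such as matriptase. It read 5.23 and 5.03 in the heart fraction, 5.37 and 5.51 in the caudal fraction, and 7.18 and 6.70 in the yolk sac. The yolk sac arrays were above all others. Heart fraction and caudal fraction were lower than the yolk sac by 1.81 ± 0.21 (adjusted p = 0.00368) and 1.5 ± 0.21 (0.0105), and they differed from each other by -0.31 (95% interval -0.82 to 0.21, adjusted p = 0.494). The difference between caudal fraction and yolk sac was not called without the first caudal array (-1.43, adjusted p = 0.0655). In its pattern over the 6 arrays Spint1 was close to Krt8 (root mean square difference 0.338).

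**Figure D2:**
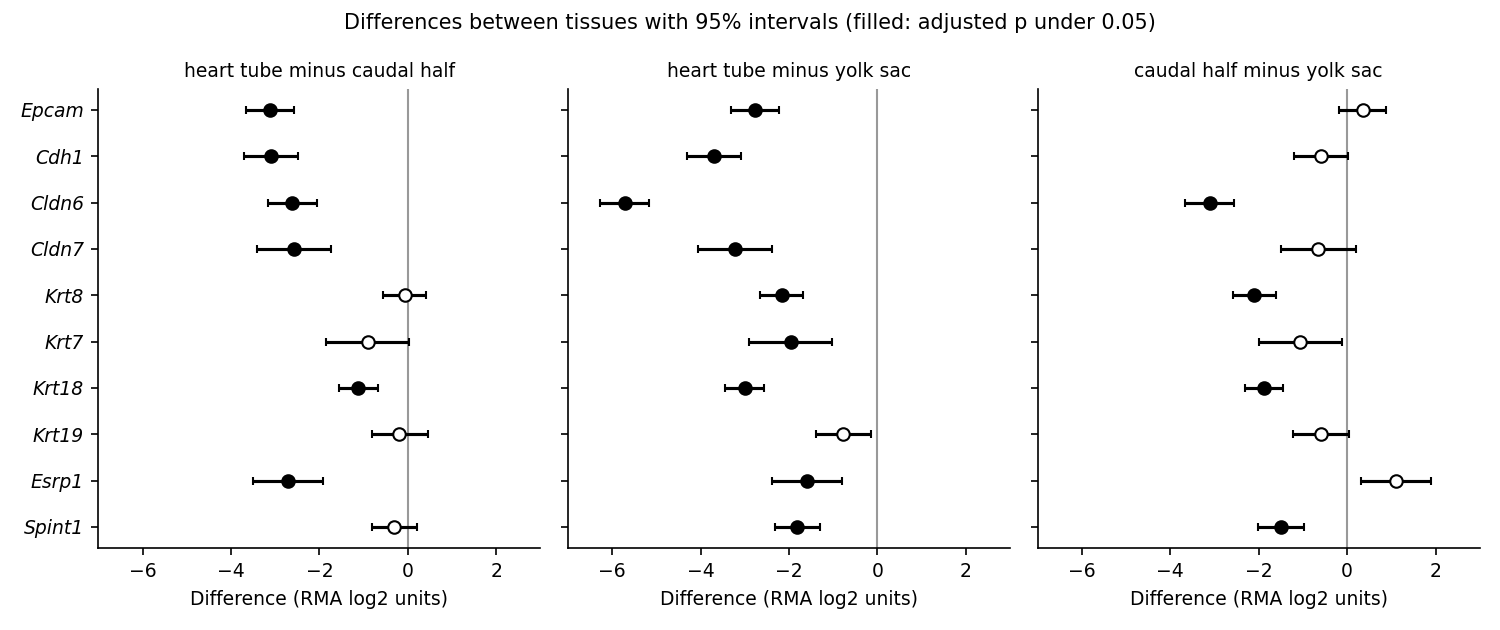
Difference of each member between tissues (RMA log2 units, point) with its 95% interval from the limma fit (bar); filled points have an adjusted p under 0.05. Krt8 and Spint1 lie at -0.07 and -0.31 between heart fraction and caudal fraction and from -2.17 to -1.5 against the yolk sac, while Epcam and Cdh1 lie from -3.70 to -2.77 in both heart fraction comparisons.

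By their calls the members fell into several patterns. Epcam, Cdh1, Cldn7 and Esrp1 were lower in the heart fraction than in both other tissues, with no call between caudal fraction and yolk sac. Cldn6 and Krt18 passed in all 3 comparisons, with the order heart fraction, caudal fraction, yolk sac. Krt8 and Spint1 were higher in the yolk sac than in both embryonic tissues, with no call between those. Krt7 passed in 1 comparison and Krt19 in none. Whether the members differ from one another in these patterns was not tested. The arrays of the heart fraction were both below those of the caudal fraction in 8 of 10 members (31.8% of all genes) and both below those of the yolk sac in 10 of 10 (32% of all genes). The arrays of the caudal fraction were both below those of the yolk sac in 8 of 10 (24.5% of all genes).

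Without the first caudal array, only 3 members (Epcam, Cdh1 and Cldn6) were called between heart fraction and caudal fraction (2.07% of all genes called in either direction). The other 5 arrays, each left out in turn, gave between 4 and 6.

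A wider list of epithelial genes was read on the same arrays. It held 35 further genes of junctions, desmosomes, polarity, epithelial proteases and epithelial transcription factors, of which 34 were measured. Of these, 2 were lower in the heart fraction than in the caudal fraction and 8 lower than in the yolk sac, and 4 were lower in the caudal fraction than in the yolk sac. Over all genes 2.65%, 6.67% and 4.86% were lower in these comparisons, and the first count, 2 of 34, is near that share. None was called higher in any of the 3 comparisons. At an unadjusted p under 0.05, limma put 0, 1 and 2 of the 34 higher and 10, 16 and 5 lower. The median differences were -0.46, -0.45 and -0.11.

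The genes with the largest called differences between heart fraction and yolk sac were Dsc2, Prss8, Perp, Pard6b, Dsp and Dsg2. Dsc2, a desmosomal cadherin, read 2.03 and 2.82 in the heart fraction, 4.16 and 3.43 in the caudal fraction, and 5.36 and 5.97 in the yolk sac. It was lower than in the yolk sac by 3.24 ± 0.38 in the heart fraction (adjusted p = 0.00337) and by 1.87 ± 0.38 in the caudal fraction (0.0309). Both heart fraction values and 1 caudal value were within the control range, and from its top each difference would be 1.64. Prss8, the membrane protease prostasin, differed by -2.74 ± 0.47 in the heart fraction and -2.50 ± 0.47 in the caudal fraction against the yolk sac (adjusted p = 0.0143 and 0.0254), with 1 array of each fraction within the control range.

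Perp, a desmosome-associated membrane protein, had both heart fraction values and 1 yolk sac value within the control range, so its fitted -2.04 (adjusted p = 0.0215) would be 0.48 from the top of that range. Pard6b, a cell polarity protein, differed by -1.73 between heart fraction and yolk sac (adjusted p = 0.0498). The desmosomal linker Dsp was lower than in the yolk sac in both the heart fraction (-1.32) and the caudal fraction (-1.05), and the desmosomal cadherin Dsg2 likewise (-1.12 and -1.09). Jup (-1.06, adjusted p = 0.0344) and Cdh3 (-0.81, 0.0352) were also called lower in the heart fraction than in the yolk sac. The plakophilins Pkp2 and Pkp3, also desmosomal and named after their values were seen, differed by -0.49 and -0.41 between heart fraction and yolk sac and did not pass (adjusted p = 0.164 and 0.18). Between heart fraction and caudal fraction the 2 called genes were Tjp3, the tight junction scaffold ZO-3 (-0.81, adjusted p = 0.0462), and Ap1m2, an epithelial sorting adaptor (-0.78, 0.048). Both heart fraction values of Ap1m2 were within the control range, and from its top the difference would be 0.51.

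The epithelial transcription factors Grhl2 and Ovol2 passed in no comparison. Grhl2, a grainyhead factor that activates Cdh1 and claudin genes, read 4.24 and 4.32 in the heart fraction, 4.62 and 4.52 in the caudal fraction, and 5.55 and 3.98 in the yolk sac, with yolk sac replicates more than 1 unit apart (adjusted p = 0.799, 0.569 and 0.86 in the 3 comparisons). Ovol2, a zinc finger repressor of mesenchymal genes, had means of 2.96, 3.07 and 3.39 in the same order, all within the control range. Esrp2, the paralogue of Esrp1, read 8.89 and 9.08 in the heart fraction, 8.85 and 9.16 in the caudal fraction, and 8.22 and 8.52 in the yolk sac. Its difference between heart fraction and caudal fraction was -0.02 (95% interval -0.51 to 0.46, adjusted p = 0.966). Against the yolk sac Esrp2 was higher, without passing. The differences were 0.61 in the heart fraction (95% interval 0.13 to 1.1, adjusted p = 0.112) and 0.64 in the caudal fraction (0.15 to 1.12, 0.113).

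Factors known to repress Cdh1 were measured on the same arrays. Twist1, a mesenchymal helix-loop-helix factor, was higher in the heart fraction than in the caudal fraction (3.48 ± 0.21, adjusted p = 0.000679) and the yolk sac (2.59 ± 0.21, 0.000862). Its relative Twist2 (3.60) and the zinc finger factor Snai1 (1.63) were higher in the heart fraction than in the yolk sac, and Snai1 was also higher in the caudal fraction than there (0.99). For Twist2, 1 yolk sac array was within the control range, and from its top the difference would be 2.99. Zeb1, a zinc finger factor, had means of 9.93 in the heart fraction, 10.02 in the caudal fraction and 9.84 in the yolk sac, with no call. Zeb2 (9.40, 8.64 and 9.40) and Snai2 (8.38, 7.26 and 8.28) were lowest in the caudal fraction, also with no call. Of the 6 genes, 1, 3 and 1 were higher in the first-named tissue of the 3 comparisons and 0 were lower. Over all genes 2.86%, 5.14% and 4.22% were called higher. At an unadjusted p under 0.05, limma put 5, 3 and 1 of the 6 higher and 0, 0 and 3 lower. Without passing, Twist2 (2.5), Snai2 (1.11), Zeb2 (0.76) and Snai1 (0.64) were higher in the heart fraction than in the caudal fraction. Their limma adjusted p was 0.0772, 0.0693, 0.129 and 0.122, and Zeb1 differed by -0.09.

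**Figure D3:**
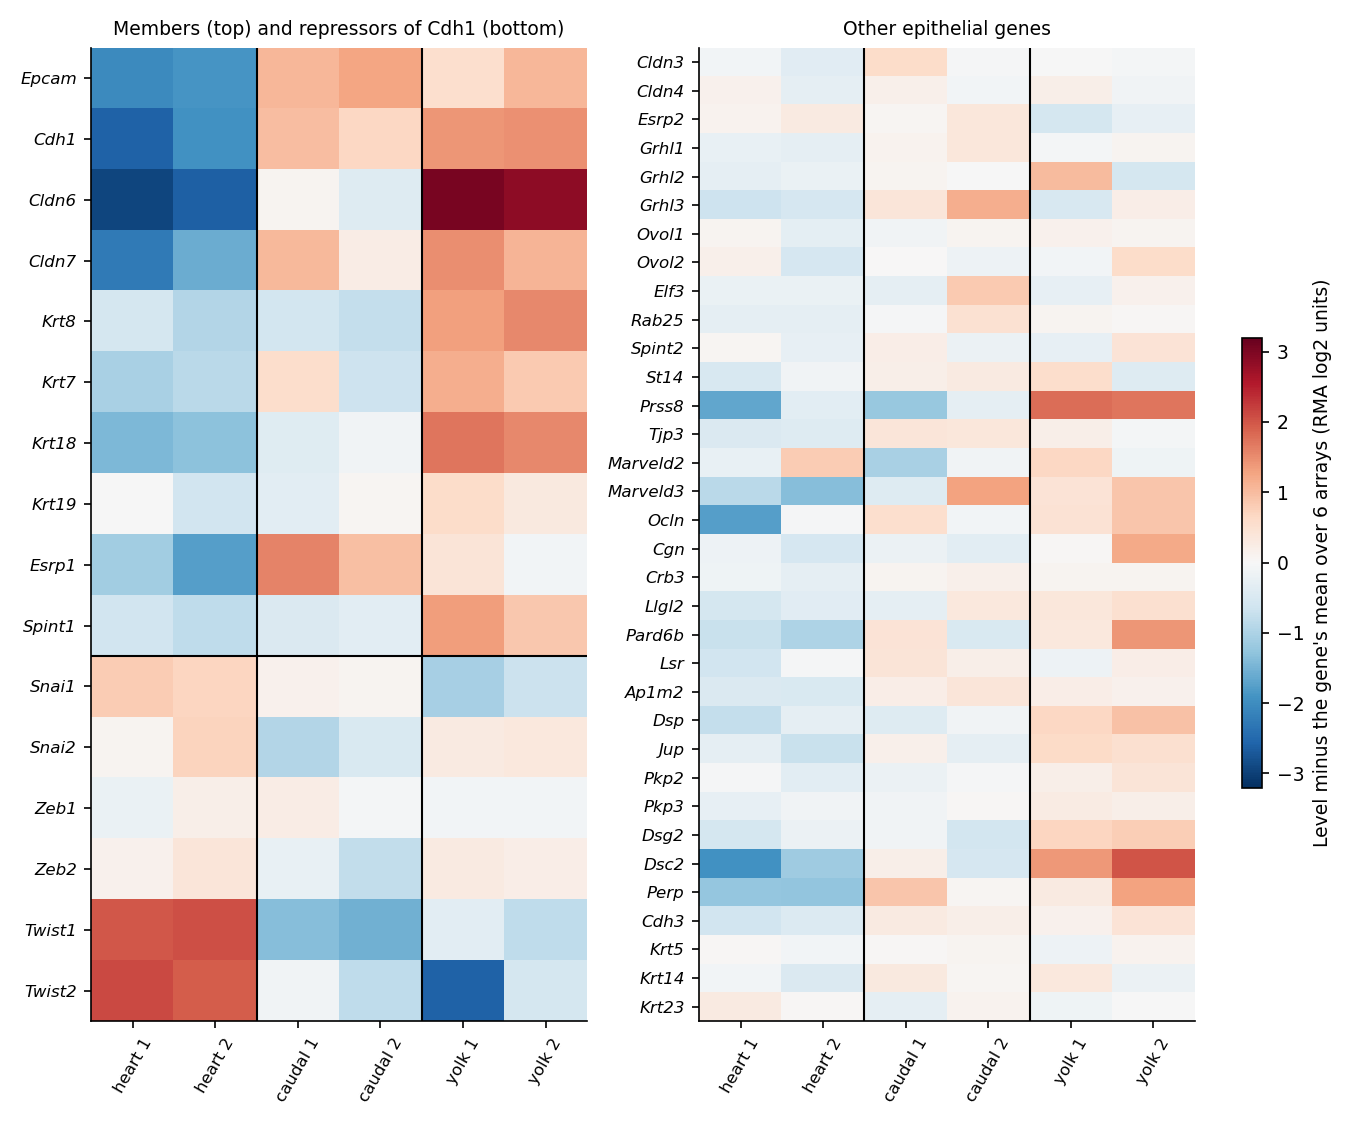
Level of each gene minus its own mean over the 6 arrays (colour, RMA log2 units); columns are arrays, and rows are the members with the Cdh1 repressors (left) and 34 other epithelial genes (right). Most members are blue (low) in both heart fraction columns and red (high) in the yolk sac columns, Twist1 is red in the heart fraction, and most other epithelial genes are pale.

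Markers of other cell types were read on the same arrays. Of 8 measured primordial germ cell genes, 7 were higher in the caudal fraction than in the heart fraction and 7 higher than in the yolk sac. Over all genes these shares were 2.65% and 4.22%. Between caudal fraction and yolk sac the median difference was 2.55 for the germ cell genes and -0.85 for the 10 members. Dppa3, a germ cell gene, read 3.35 and 3.2 in the heart fraction, 9.68 and 9.52 in the caudal fraction, and 7.06 and 7.07 in the yolk sac. Pou5f1, the pluripotency factor Oct4, read 3.71 and 3.75, 8.08 and 7.63, and 4.78 and 5.0 in the same order. The summed level of the list (log2 of the sum over its genes) was 7.06 to 8.0 in the heart fraction, 11.22 to 11.37 in the caudal fraction and 8.59 to 9.08 in the yolk sac. In the heart fraction Dppa3, Pou5f1, Nanog, Prdm14 and Sox2 were within the control range. All 10 members, Epcam, Cdh1 and Esrp1 among them, also had their lowest mean in the heart fraction. The part of germ cell RNA in the values of the members was not tested.

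Visceral endoderm genes were also read. Of 11 measured genes, 8 were lower in the heart fraction and 8 lower in the caudal fraction than in the yolk sac. Over all genes 6.67% and 4.86% were called lower. Ttr, transthyretin, read 4.81 and 4.90 in the heart fraction, 4.46 and 4.50 in the caudal fraction, and 12.31 and 12.53 in the yolk sac. The summed level of the list was 8.04 to 8.07 in the heart fraction, 8.22 to 8.51 in the caudal fraction and 14.32 to 14.38 in the yolk sac. Foxa2 and Ihh were within the control range on all yolk sac arrays. Upk3b, a mesothelial gene, read 3.36 and 3.97 in the heart fraction, 3.87 and 4.80 in the caudal fraction, and 7.75 and 7.65 in the yolk sac. It was the 1 gene of 6 on the mesothelial list that passed in either yolk sac comparison. Tbx18, Msln and Sema3d of that list were within the control range on both yolk sac arrays. The part of visceral endoderm or mesothelial RNA in the yolk sac levels of Cldn6, Krt8, Krt18 and Spint1 was not tested.

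Of 8 gut endoderm genes, Sox17, which endothelium also uses, was the 1 called in each heart fraction comparison. Foxa1, Foxa2 and Cdx1 were within the control range on all 6 arrays. Of 7 surface ectoderm genes limma called 0 in any comparison (1, 0 and 1 at an unadjusted p under 0.05), and their summed level was 6.94 to 7.33 over all arrays. Of 5 measured trophoblast genes, Tfap2c (also a germ cell gene) and Gata3 passed in some comparison, and Elf5 and Tpbpa were within the control range throughout. Of 8 cardiomyocyte genes, 4 were higher in the heart fraction than in the caudal fraction and 6 higher than in the yolk sac. Over all genes 2.86% and 5.14% were called higher. The summed level of this list was 11.4 to 11.43 in the heart fraction, 9.21 to 9.28 in the caudal fraction and 7.49 to 7.87 in the yolk sac. Nkx2-5 was within the control range on all 6 arrays. The bearing of cardiomyocyte RNA on the heart fraction values of the members was not tested.

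**Figure D4:**
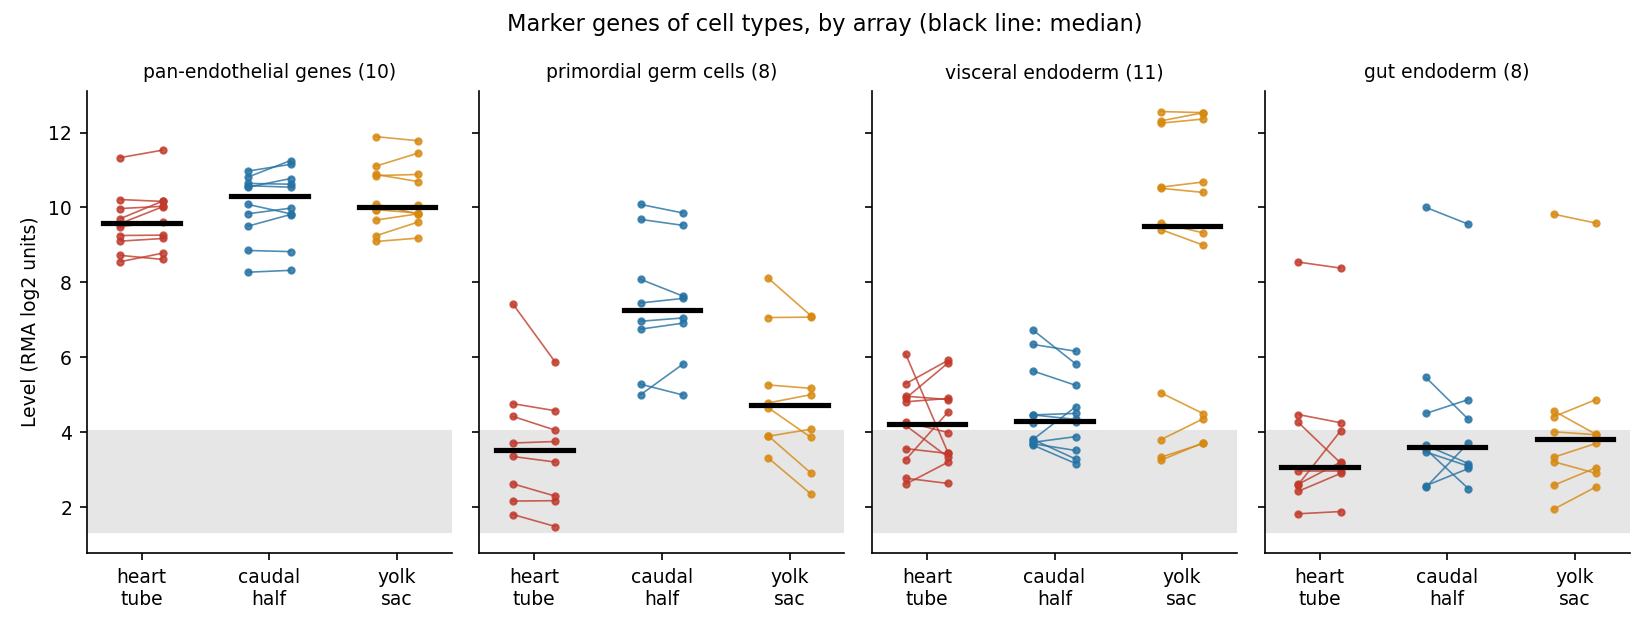
Levels (RMA log2 units) of marker genes of 4 cell types on each array; a line joins the 2 arrays of a tissue for each gene, the black bar is the median of the list, and the grey band is the range of the bacterial controls (1.33 to 4.03). Germ cell genes are highest in the caudal fraction, visceral endoderm genes in the yolk sac, and most gut endoderm genes are in or near the band in all tissues.

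The genes whose pattern over the 6 arrays was closest to 4 of the members were also found, among 13813 genes whose highest array was above the control range. They are given as a description, with the root mean square difference after each gene's mean was removed. Nearest to Epcam were Clec1b, a C-type lectin receptor of platelets and some endothelium (0.196), Hoxb6 (0.209) and Col15a1, a collagen of basement membranes (0.274). Nearest to Cdh1 were Chchd10, a mitochondrial protein (0.192), Cldn5, the tight junction claudin of endothelium (0.201), and Pcdh17, a protocadherin (0.228). Cldn5 read 6.40 and 7.14 in the heart fraction, 10.22 and 10.11 in the caudal fraction, and 10.29 and 10.32 in the yolk sac. Nearest to Krt8 were Serpinf2, a plasmin inhibitor (0.111), 2810459M11Rik (0.138) and Tmem63a (0.143). Nearest to Cldn6 were Hoxc8 (0.421), the mesenchymal forkhead factor Foxf1 (0.445) and Lum, lumican of connective tissue (0.482).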

How the data were processed

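Total RNA of the 6 sorted fractions was labelled with biotin and hybridised to Affymetrix arrays. The authors deposited 1 intensity value per probe set and array, made by RMA in affy per the submitters' processing notes. The natural log of this deposited intensity spanned 0.899 to 14.6 and was read as the RMA log2 value; the labels do not name the base. Of 45101 probe sets, 34958 had 1 gene symbol (34945 without control probe sets), 932 several and 9211 none, with symbols from the platform annotation. The probe set with the highest mean over the arrays stood for its gene.

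limma 3.58.1 (R 4.3.3) fitted 3 tissue means to all 6 arrays over 18193 genes, without covariates, with a two-sided test and Benjamini-Hochberg adjustment. A gene was called at an adjusted p under 0.05. A run of the fit on simulated independent normal values with added shifts checked the code only. It cannot show how precise the fit is on these arrays. Replicates are separate biological samples per the labels, and 2 a tissue limit the precision (median SE 0.21). Over all genes, same-numbered replicates did not deviate together (correlations 0.0468, -0.00681 and 0.0189), and no block was used. Such correlations cannot show whether those replicates shared embryos.

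All members were named. From the other epithelial genes and the Cdh1 repressors, up to 6 called genes per comparison with the largest differences were named, plus Grhl2, Ovol2, Esrp2, Zeb1, Zeb2 and Snai2. Further marker genes named, and Jup, Cdh3, Pkp2 and Pkp3, were chosen after their values were seen. The members and lists were chosen with earlier results of these data known. Alternatives changed the probe set rule, scale, filter, prior, centring, block and arrays. Promoter windows are RefSeq's (GRCm38.p6), and no entry was used for Cdh1, Krt19 and Esrp1.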

Additional observations from a re-analysis of the deposited data

How the results depend on the processing

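The count of members called between heart fraction and caudal fraction fell from 6 to 3 without the first caudal array. Leaving out each array in turn gave 3 to 6 members in that comparison, 7 to 9 between heart fraction and yolk sac, and 4 to 4 between caudal fraction and yolk sac. A lone remaining array was then assumed to vary like the others. With the replicate number as a block the counts were 6, 9 and 5, and Esrp1 was added between caudal fraction and yolk sac (1.11, adjusted p = 0.023, limma). The labels do not say whether same-numbered replicates were paired, and the correlations above cannot decide it, so this is only a block result. Of 19 called differences, 13 passed under all 13 alternatives and 6 were lost in at least 1. No member's difference reversed where it was called. The mean over probe sets, the filter on dim genes (13341 left), both other priors and median centring each gave 6, 9 and 4. Among the members, the mean over probe sets changes the levels of Epcam and Krt8 only. The log2 of the deposited signal, also among the 13 alternatives, rescales every value by 1 constant and so could not change a call. Over all genes, median centring moved the calls between caudal fraction and yolk sac from 767 higher and 885 lower to 1004 and 807. Heart fraction values of Cdh1, Cldn6 and Cldn7 (both arrays) and Esrp1 (1 array), within the bacterial control range, limit how exactly those differences are known.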
